A study of Mus musculus with 8 samples.

Results

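The cytokines BAFF (gene Tnfsf13b) and APRIL (Tnfsf13) and their receptors TACI (Tnfrsf13b), the BAFF receptor (Tnfrsf13c) and BCMA (Tnfrsf17) were followed in CD11c-positive spleen cells of lupus-prone and control mice. The 2 ligands and 3 receptors were chosen by gene symbol and not by their values, and all 5 were among the 13786 protein-coding genes in the deposited count table. The study sequenced RNA of these cells to ask how antigen-presenting cells of the lupus model differ from those of control mice before overt disease. The groups were 4 C57BL/6 mice, the control strain, and 4 B6.SLE123 mice, which carry the lupus susceptibility intervals Sle1, Sle2 and Sle3 on the C57BL/6 background. Every animal was female, 7 weeks old and untreated, and none of the 5 genes lies on a chromosome that carries one of the intervals. The other genes named below, markers and pathway genes alike, were not checked for this. Some of them may lie in or near an interval, where the strains differ in sequence. The labels number 4 samples in each strain, each taken here as 1 mouse, do not say whether mice were pooled and do not pair samples between the strains, so p-values measure only the spread between these samples.

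BAFF and APRIL belong to the tumor necrosis factor superfamily and are made mainly by monocytes, macrophages, dendritic cells and neutrophils, with stromal cells as a further source of BAFF. BAFF binds all of the receptors and keeps mature B cells alive, chiefly through the BAFF receptor, whereas APRIL binds TACI and BCMA and sustains plasma cells. TACI is prominent on marginal zone and activated B cells and restrains B cell expansion, and BCMA appears as B cells become plasma cells. Excess BAFF drives autoimmunity in mice, and blockade of BAFF is a treatment for human lupus.

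Libraries held between 25563070 and 37367094 counts. The labels call the cells dendritic cells, and the 8 markers shared by conventional dendritic cells, led by Cd74, H2-Ab1 and H2-Aa, summed to 22900 to 26700 CPM (a count scaled to a common library total) in C57BL/6 and 28200 to 29700 CPM in B6.SLE123. Markers of other cells were also present: 14 red pulp macrophage genes summed to 14400 to 18400 CPM in C57BL/6 and 2050 to 4080 CPM in B6.SLE123, and 14 B cell genes to 1080 to 1200 and 847 to 985 CPM. In such bulk RNA, fewer cells of a type and less RNA per cell cannot be told apart. CPM values below are scaled by TMM, an edgeR factor for library composition, and log2 fold changes are B6.SLE123 over C57BL/6.

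In mm10, the ligand genes lie at chr8:10006467-10039072 on the plus strand (Tnfsf13b, ENSMUSG00000031497.9) and chr11:69682846-69685784 on the minus strand (Tnfsf13, ENSMUSG00000089669.7). The receptor genes lie at chr11:61126755-61149372 on the plus strand (Tnfrsf13b, ENSMUSG00000010142.12), chr15:82221743-82224369 on the minus strand (Tnfrsf13c, ENSMUSG00000068105.11) and chr16:11313812-11320074 on the plus strand (Tnfrsf17, ENSMUSG00000022496.5). Of these, Tnfsf13 shares exons with another gene on its own strand. Tnfsfm13, at chr11:69682577-69696098, reads through from the neighbouring Tnfsf12, the gene of the cytokine TWEAK, into Tnfsf13 and encodes a TWEAK-APRIL hybrid. It covers 983 of the 1637 exon bases of Tnfsf13, and the remaining 654 bases form 1 run in exon 1, chr11:69685131-69685784. Reads outside that run cannot be assigned to APRIL alone, so its coding stretch is shown, from the GENCODE M21 transcript at mm10 chr11:69685131-69685259, 5′ to 3′ on the minus strand, with the start codon in capitals.
Tnfsf13 exon 1, coding bases absent from Tnfsfm13: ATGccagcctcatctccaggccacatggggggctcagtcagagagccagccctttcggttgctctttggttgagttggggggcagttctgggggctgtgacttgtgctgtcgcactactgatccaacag
These 129 bases encode the start of APRIL, before the part that the hybrid transcript also holds.

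APRIL and the BAFF receptor fell in B6.SLE123 mice, by 3.42-fold and 1.40-fold, while BAFF and TACI did not pass the test. BCMA did not pass it either, but was listed only through the strain in which it was higher, so its p is not a test. In edgeR's quasi-likelihood test, with p-values adjusted by Benjamini-Hochberg over the whole table, 2 of the 5 genes (40%) had an adjusted p below 0.05, against 53.4% of all 13786 genes. The count for the 5 genes was thus no higher than the background, of which 26.6% were lower and 26.7% higher in B6.SLE123. Both falls were also without overlap between the strains, as were the values of 48.9% of all genes, and 24.5% of all genes were lower in every B6.SLE123 mouse. APRIL alone of the 5 was past the threshold and changed by more than 2-fold, in the lower direction, which holds for 8.29% of all genes (11.1% in either direction).

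**Figure D1:**
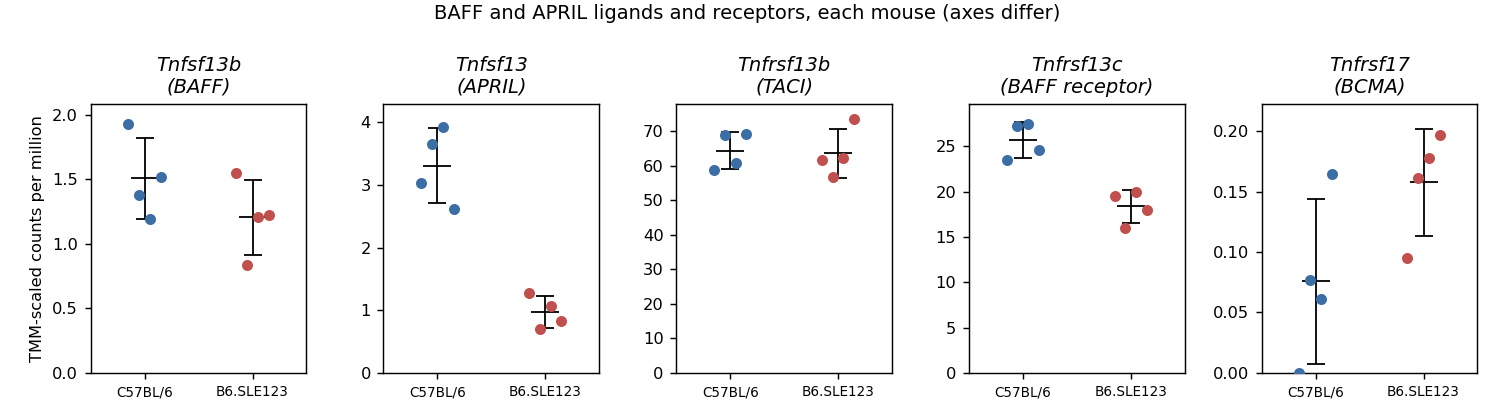
Expression of the 5 genes in TMM-scaled CPM in each mouse (points), with the mean and SD of the 4 mice of each strain (bars). Each panel has its own axis from 0. APRIL and the BAFF receptor are lower in all 4 B6.SLE123 mice than in any C57BL/6 mouse, and the strains overlap for BAFF, TACI and BCMA.

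Tnfsf13, the gene of APRIL, measured 3.03, 3.65, 3.93 and 2.61 CPM in the C57BL/6 mice, from 79 to 129 counts. The B6.SLE123 mice had 1.27, 0.699, 1.07 and 0.827 CPM, from 21 to 40 counts. The highest B6.SLE123 mouse was thus below the lowest C57BL/6 mouse. Means were 3.31 ± 0.596 CPM and 0.964 ± 0.252 CPM (SD, n = 4), and the log2 fold change was -1.78 ± 0.21 (SE; 95% interval -2.25 to -1.30; edgeR adjusted p = 4.79e-05). An exact two-sided permutation test over the 8 mice gave p = 0.0286, the smallest that 4 mice against 4 allow.

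Tnfsf13b, the gene of BAFF, measured 1.93, 1.38, 1.19 and 1.52 CPM in C57BL/6 mice and 1.55, 0.833, 1.21 and 1.22 CPM in B6.SLE123 mice. Counts were between 31 and 51 in every library, and 3 of the B6.SLE123 values lay within the C57BL/6 range. The mean was 1.51 ± 0.314 CPM in C57BL/6 and 1.20 ± 0.293 CPM in B6.SLE123 (SD, n = 4). The fold was 0.799 with a 95% interval of 0.561 to 1.14 (edgeR adjusted p = 0.262), so neither a fall to 0.561 nor a small rise lies outside what these mice allow. BAFF RNA was scarce per length, at 0.219 ± 0.0457 CPM per kb of exon in C57BL/6, against 2.02 ± 0.364 CPM per kb for APRIL over all its exon bases. Dividing the Tnfsf13 counts by its 654 own bases alone, as if no shared base had been counted, gave 5.05 ± 0.911 CPM per kb in C57BL/6 and 1.47 ± 0.385 CPM per kb in B6.SLE123.

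As log2 CPM, BAFF lay below APRIL in every C57BL/6 mouse, with BAFF minus APRIL at -0.63, -1.36, -1.67 and -0.76, and above it in every B6.SLE123 mouse, at 0.28, 0.23, 0.18 and 0.53. Both genes enter this ratio without correction for length, so the change in the ratio and not its sign is the measurement. The ratio differed by 1.41 between the strains (exact permutation p = 0.0286). Adjusted over the 15 relative levels and ratios tested in this way, p was 0.0612, and the same holds for every comparison below whose unadjusted p is 0.0286.

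The whole TWEAK and APRIL locus was lower in B6.SLE123 mice. Tnfsf12, whose product TWEAK signals through Fn14 and whose annotated end lies 466 bases from Tnfsf13, measured 8.14, 9.29, 9.91 and 10.2 CPM in C57BL/6 mice and 3.23, 1.94, 2.96 and 2.99 CPM in B6.SLE123 mice. Its log2 fold change was -1.76 ± 0.15 (SE; edgeR adjusted p = 4.04e-06), close in size to that of APRIL. The hybrid Tnfsfm13 measured 1.78, 1.61, 1.80 and 1.99 CPM against 0.411, 0.269, 0.237 and 0.236 CPM, a log2 fold change of -2.62 ± 0.23 (edgeR adjusted p = 4.86e-06). For these 3 genes no B6.SLE123 mouse reached the lowest C57BL/6 mouse.

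**Figure D2:**
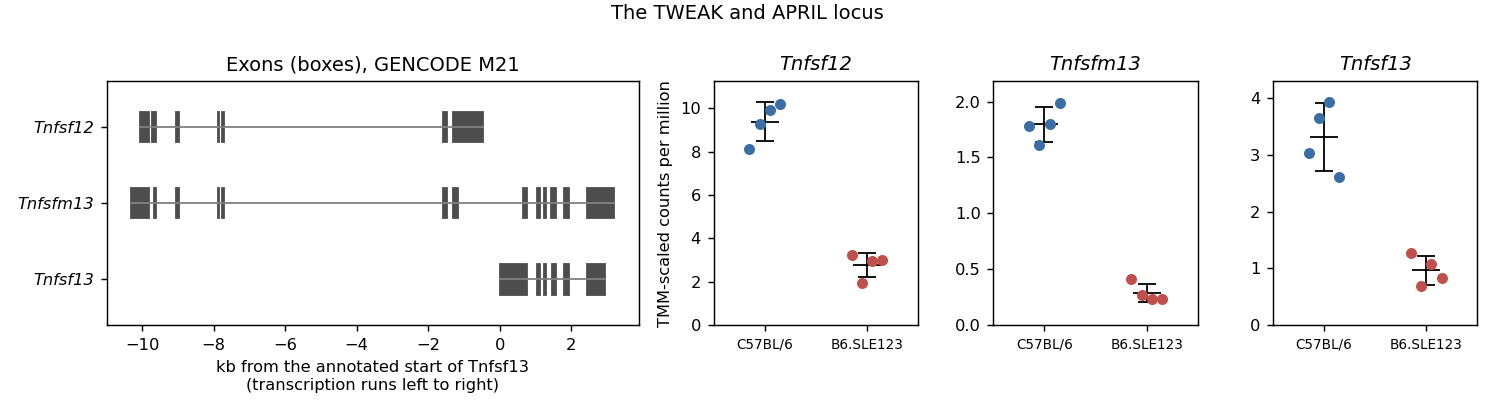
Left, exons (boxes) of Tnfsf12, Tnfsfm13 and Tnfsf13 in kb from the annotated start of Tnfsf13, with transcription from left to right. Right, TMM-scaled CPM of each gene in each mouse (points) with the mean and SD of 4 mice per strain (bars), from 0; the hybrid gene spans both neighbours, and all 3 are lower in every B6.SLE123 mouse than in any C57BL/6 mouse.

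How reads of shared exons were assigned is not given in the sources used here, and the exon 1 run shown above cannot be counted separately in a gene table. The share of APRIL in the counts of the 3 genes was 17.7% to 25.1% in C57BL/6 mice and 20.4% to 25.8% in B6.SLE123 mice, so the ranges overlapped. The share of the hybrid was lower in B6.SLE123, at 5.56% to 9.26% against 11.1% to 13.7%. It rested on only 6 to 13 counts of the hybrid a mouse in B6.SLE123, against 42 to 60 in C57BL/6, and was not tested. With the counts of APRIL and the hybrid summed, an alternative added after seeing the data, the log2 fold change was -2.02 (edgeR adjusted p = 4.28e-06), and with Tnfsf12 summed in as well it was -1.85 (adjusted p = 1.63e-06). Senp3, a SUMO protease gene 762 bases from Tnfsf13, fell less, with a log2 fold change of -0.27 ± 0.04 (adjusted p = 0.00035). The antisense gene Tnfsf13os overlaps 221 exon bases of Tnfsf13, and since the strand setting of the counting is not given, its reads cannot be told apart from those of APRIL.

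Among the receptors, Tnfrsf13b, the gene of TACI, had the highest level per length at 22.7 ± 1.91 CPM per kb in C57BL/6 mice and 22.4 ± 2.47 CPM per kb in B6.SLE123 mice. Its values were 58.8, 69.0, 60.9 and 69.2 CPM in C57BL/6 mice and 61.8, 56.8, 62.4 and 73.5 CPM in B6.SLE123 mice, so that both the lowest and the highest mouse were B6.SLE123. The fold was 0.985 with a 95% interval of 0.870 to 1.12, and the edgeR adjusted p was 0.845. With 1555 to 2114 counts in each library, a fall to below 0.870 or a rise to above 1.12 lay outside this interval.

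Tnfrsf13c, the gene of the BAFF receptor, measured 23.5, 27.3, 27.5 and 24.6 CPM in C57BL/6 mice and 19.5, 16.0, 20.0 and 18.0 CPM in B6.SLE123 mice. All 4 B6.SLE123 mice were below all C57BL/6 mice. The means were 25.7 ± 2.0 and 18.4 ± 1.78 CPM (SD, n = 4), and the log2 fold change was -0.49 ± 0.08 (SE; 95% interval -0.67 to -0.30; edgeR adjusted p = 0.000512). Per length the gene was second to TACI, at 12.5 ± 0.977 CPM per kb in C57BL/6 and 8.97 ± 0.870 CPM per kb in B6.SLE123.

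Tnfrsf17, the gene of BCMA, had 0, 2, 2 and 5 counts in the C57BL/6 libraries and 3, 6, 6 and 5 counts in those of B6.SLE123. The library without a count allows up to 0.114 CPM, the level of 3 counts, for counting error only. Its median count was 2.0 in C57BL/6 and 5.5 in B6.SLE123, and no gene in the table has both medians below 5.0, so BCMA was listed only through the strain in which it was higher. The fold of 1.96 had a 95% interval of 0.768 to 5.02 (edgeR adjusted p = 0.204). Since listing depended on the B6.SLE123 counts, neither this fold nor its p can be read as a test of BCMA, and the counts were few. Without C57BL/6 replicate 4, the mouse with 5 counts, the log2 fold change moved from 0.97 to 1.65.

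By level per length the order in C57BL/6 mice was TACI, BAFF receptor and APRIL, followed by BAFF at 0.219 ± 0.0457 CPM per kb and BCMA at 0.093 ± 0.0839 CPM per kb. The SD ranges of BAFF and BCMA overlapped. BAFF was the higher in every C57BL/6 mouse, but BCMA rested on 0 to 5 counts. In B6.SLE123 mice TACI, BAFF receptor and APRIL kept this order, with APRIL at 0.589 ± 0.154 CPM per kb. There BAFF, at 0.175 ± 0.0427, and BCMA, at 0.193 ± 0.0543 CPM per kb, overlapped, and which was higher varied between mice. Both genes at the top of this order are best known from B cells, in a preparation whose labels name dendritic cells.

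The B cell markers fell as a list: 10 of 14 were lower and 1 higher at an adjusted p below 0.05, beside 26.6% and 26.7% of all genes. The median log2 fold change was -0.58 against -0.002 over all genes. Among its most abundant genes, Bank1, an adaptor of B cell receptor signalling, went from 142 to 60.0 CPM, and Cd22, an inhibitory coreceptor, rose from 253 to 320 CPM. Ms4a1, the gene of CD20, had 88.3 and 83.2 CPM and did not pass the test (adjusted p = 0.322). Receptors were therefore also set against the mean log2 CPM of this list within each mouse.

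Relative to the B cell list, the BAFF receptor was at -1.40, -1.34, -1.37 and -1.46 in C57BL/6 mice and at -1.38, -1.37, -1.30 and -1.37 in B6.SLE123 mice on the log2 scale. The strain difference was 0.04, within the spread of the mice (exact permutation p = 0.314; adjusted p = 0.363). TACI relative to the same list was at -0.07, -0.01, -0.22 and 0.03 in C57BL/6 and at 0.29, 0.46, 0.34 and 0.65 in B6.SLE123, without overlap. That difference was 0.50 (exact permutation p = 0.0286; adjusted p = 0.0612). TACI over the BAFF receptor gave 1.32, 1.34, 1.15 and 1.49 against 1.66, 1.82, 1.64 and 2.02, a difference of 0.46 with the same p-values. Such a shift is not particular to TACI. Within the B cell list, Blk, Cd72 and Ms4a1, at 0.07, -0.04 and -0.09, did not pass the test either and Cd22 rose, while 10 of 14 fell.

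**Figure D3:**
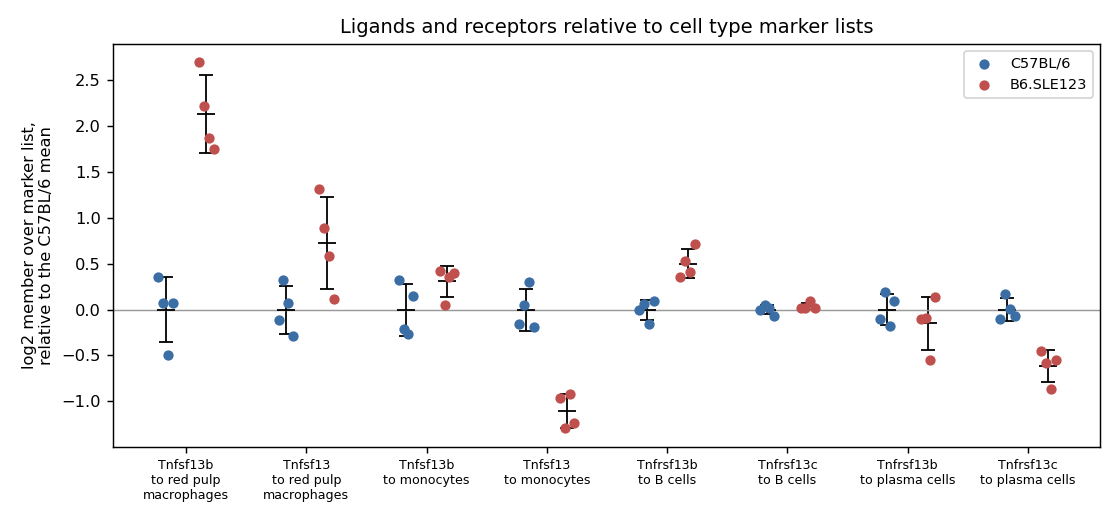
Log2 level of a ligand or receptor minus the mean log2 level of a marker list in each mouse (points), set to 0 at the C57BL/6 mean, with the mean and SD of 4 mice per strain (bars). The BAFF receptor stays within 0.10 of 0 relative to B cell markers, TACI lies above 0 in all 4 B6.SLE123 mice, and APRIL relative to monocyte markers lies about 1.11 below.

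Plasma cell markers, the setting in which BCMA is usually found, had 3 of 10 genes higher and 3 lower at an adjusted p below 0.05, beside 26.7% and 26.6% of all genes, a median of 0.04 on the log2 scale and summed levels of 739 to 784 CPM in C57BL/6 and 687 to 758 CPM in B6.SLE123. The risers, named after their values were seen, were Jchain, which joins IgM and IgA polymers, from 24.5 to 52.7 CPM, and Mzb1 and Derl3, which serve protein folding and disposal in the endoplasmic reticulum, with log2 fold changes of 1.06 and 1.10. The falls were in Prdm1, Xbp1 and Slamf7, genes that dendritic cells and macrophages also express. Slamf7 fell by 0.14 on the log2 scale (adjusted p = 0.0333) and missed the threshold without B6.SLE123 replicate 1 (0.0616) or 3 (0.0819) and without C57BL/6 replicate 1 (0.0785), 2 (0.0585) or 4 (0.0657).
Relative to this list, the BAFF receptor was lower by 0.61 in B6.SLE123 mice without overlap (exact permutation p = 0.0286; adjusted p = 0.0612). TACI differed by -0.15 (exact permutation p = 0.514) and overlapped between the strains. BCMA differed by 0.64 relative to this list, by 1.30 relative to the B cell list and by 1.26 relative to the BAFF receptor. These are given without a test, since BCMA was in the table only through the strain in which it was higher, but they count among the 15 of the adjustment.

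Markers of cell types known to make the ligands were read in the same way, against 53.4% of all genes called. All 14 red pulp macrophage markers fell, with a median of -2.42 on the log2 scale and, among the most abundant, Vcam1 at -2.45, Csf1r at -2.18 and the iron exporter gene Slc40a1 at -2.68. All 3 marginal zone macrophage markers fell (167 to 202 against 34.5 to 62.6 CPM, median -1.77). In the monocyte list 4 of 10 fell (977 to 1060 against 549 to 716 CPM, median -0.20), with Treml4 at -1.05 and Nr4a1 at -0.88 among the most abundant, while Ms4a6c, at 0.04 (adjusted p = 0.677), was among the 6 that did not pass the test. Other genes of nonclassical monocytes in the list were mixed. Cx3cr1 was at -0.10 and Ace at -0.12, neither past the test. Fcgr4 fell from 88.1 to 23.5 CPM, with a log2 fold change of -1.91 (edgeR adjusted p = 1.04e-06). In the neutrophil list 4 of 9 measured genes fell and 3 rose (131 to 145 against 37.9 to 60.8 CPM, median -0.25), with Csf3r at -1.61 and Mmp9 at -2.17 among the most abundant, while S100a9, at -0.23 (adjusted p = 0.544), did not pass the test. The 3 that rose, the granule protein genes Ngp, Camp and Ltf, were at 1.52, 1.66 and 1.71 and were named after their values were seen. Each of them overlapped between the strains. Camp had 3 to 7 counts in C57BL/6 mice and 7 to 21 in B6.SLE123 mice. Its listing, like that of BCMA, rested on the strain in which it was higher, so its call is not read as a test. Ngp, with an adjusted p of 0.0239, missed the threshold by limma-voom (0.0729), with the replicate block (0.0552), without B6.SLE123 replicate 1 (0.0535) or 4 (0.0635) and without C57BL/6 replicate 1 (0.057), 2 (0.0633) or 4 (0.0701). No marker of these lists was at 0 in every mouse.

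Both ligands were set against these lists within each mouse, and no difference passed 0.05 after adjustment over the 15 comparisons, those of BCMA included. Relative to monocyte markers APRIL was lower in B6.SLE123 by 1.11 on the log2 scale, and relative to neutrophil markers by 1.5, without overlap in either case (exact permutation p = 0.0286; adjusted p = 0.0612). Relative to red pulp macrophage markers, which fell more than APRIL, it was higher by 0.72, with overlap (exact permutation p = 0.0571; adjusted p = 0.0857). BAFF was higher by 2.13 relative to red pulp macrophage markers, without overlap (exact permutation p = 0.0286; adjusted p = 0.0612). Its difference was 0.30 relative to monocyte markers (exact permutation p = 0.171) and -0.10 relative to neutrophil markers (exact permutation p = 0.8). The part of these cell types in the fall of APRIL was not tested.

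Dendritic cell markers went the other way or were mixed, read beside 26.7% of all genes higher and 26.6% lower at an adjusted p below 0.05. All 8 markers common to conventional dendritic cells rose, with a median log2 fold change of 0.30. In the type 1 list 6 of 8 rose and 1 fell (1450 to 1810 against 1830 to 2900 CPM, median 0.73), and in the type 2 list 2 rose and 2 fell of 8 (2650 to 2870 against 1850 to 2290 CPM, median 0.01). In the plasmacytoid list 1 rose and 3 fell of 8 (363 to 391 against 312 to 380 CPM, median -0.02). T cell markers had 1 rise and 1 fall among 7 measured (46.1 to 53.9 against 47.4 to 56.0 CPM, median -0.32), NK cell markers 1 rise among 8 (126 to 155 against 147 to 154 CPM, median -0.10). Of 11 measured interferon-response genes, a list included because interferon induces BAFF, 3 fell (531 to 689 against 391 to 671 CPM, median -0.09). In the type 2, plasmacytoid, T cell, NK cell and interferon lists the called share was no higher than the 53.4% of all genes.

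Genes that release the ligands, shed the receptors or bind APRIL were read next, as a list of 10 genes of which 9 were in the table. At an adjusted p below 0.05, 5 of the 9 fell, beside 53.4% of all genes called and 26.6% lower, and the median log2 fold change was -0.19. Furin, the protease that cleaves BAFF and APRIL from their precursors, went from 94.3 to 82.7 CPM (log2 fold change -0.19 ± 0.05, SE; edgeR adjusted p = 0.00968). Sdc4, a heparan sulfate proteoglycan of the kind that holds APRIL at the cell surface, went from 41.1 to 18.3 CPM (-1.17 ± 0.12; adjusted p = 1.41e-05).
Psenen (log2 fold change -0.71; adjusted p = 2.01e-05) and Ncstn (-0.47; adjusted p = 8.81e-06), subunits of the γ-secretase that trims BCMA from the membrane, also fell, while the subunit gene Aph1a was at 0.01 and did not pass the test. Adam10, which sheds TACI and the BAFF receptor, had a log2 fold change of -0.12 and Adam17 of 0.06, neither past the test. Sdc1, the plasma cell proteoglycan CD138 and also in the plasma cell list, had a log2 fold change of 0.29 (adjusted p = 0.343), and the fifth gene to fall was Tnfsf12.

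Downstream of the receptors, BAFF releases the kinase NIK (Map3k14) from degradation by a complex of TRAF2, TRAF3 and cIAPs, and NIK then drives processing of p100 (Nfkb2), the partner of RelB. Of 26 genes of receptor signalling to NF-κB and survival, 7 rose, 2 fell and 17 did not pass the test, with a median log2 fold change of 0.08. The 9 called of 26 stand beside 53.4% called among all genes, with 26.7% of all genes higher and 26.6% lower. The rises were thus about as frequent as among all genes. Most leukocytes, dendritic cells included, express these genes, so their levels are not those of receptor-bearing cells alone.

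**Figure D4:**
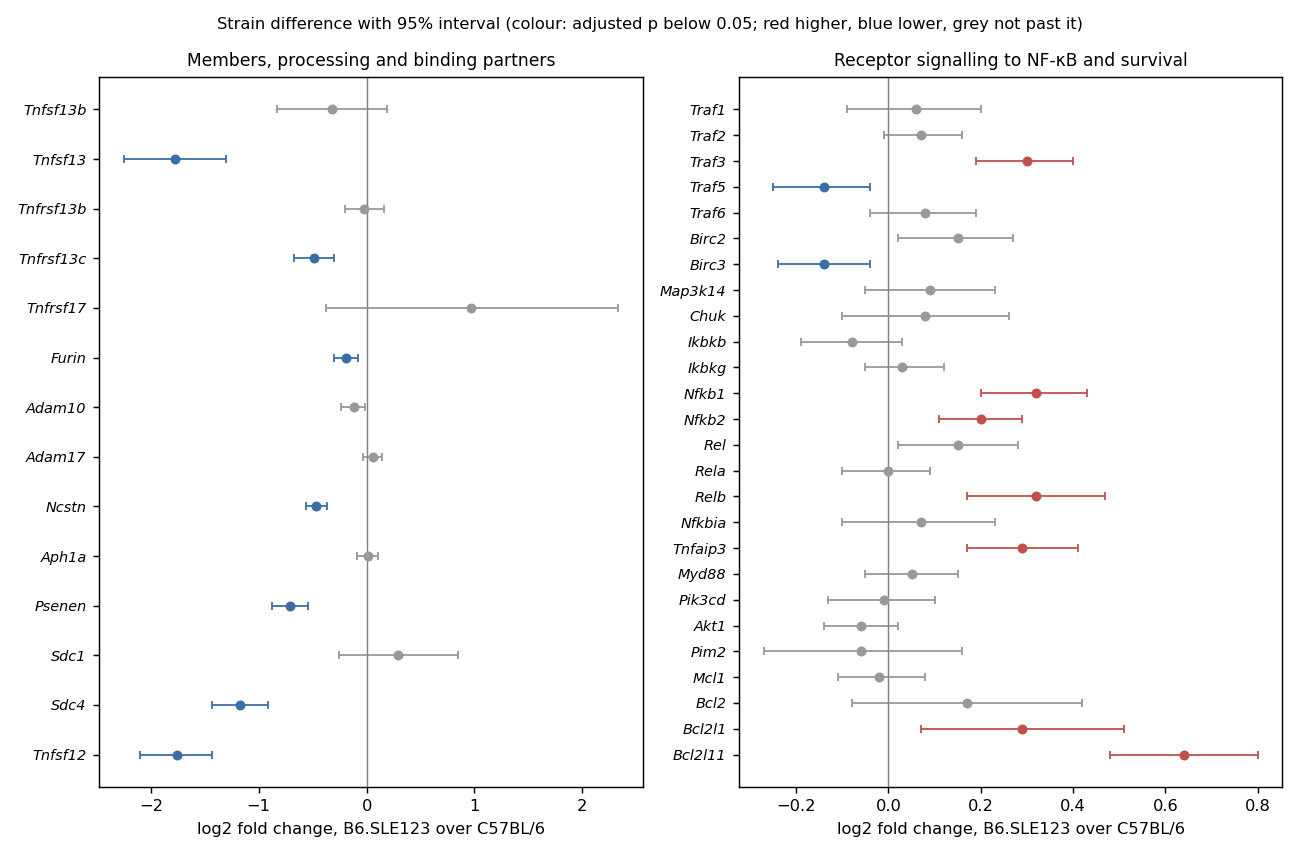
Log2 fold change (B6.SLE123 over C57BL/6, points) with its 95% interval (bars) for the 5 ligand and receptor genes with their processing and binding partners (left) and for receptor signalling genes (right). Colour marks an adjusted p below 0.05, with blue for lower and red for higher; APRIL, at -1.78, lies farthest from 0 among the called genes at left, and Bcl2l11, at 0.64, at right.

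Traf3, which restrains NIK, rose from 130 to 159 CPM (log2 fold change 0.30 ± 0.05, SE; edgeR adjusted p = 0.00043), and Map3k14 itself had 181 and 193 CPM and did not pass the test (adjusted p = 0.245). Nfkb2 rose from 324 to 373 CPM, Relb from 427 to 534 CPM and Nfkb1 from 608 to 757 CPM, log2 fold changes of 0.20, 0.32 and 0.32. The rise of most size was that of Bcl2l11, the gene of the proapoptotic protein BIM that BAFF signals hold down in B cells, from 53.0 to 82.3 CPM (0.64 ± 0.07; adjusted p = 3.2e-05). Tnfaip3, an NF-κB inhibitor, and Bcl2l1, the gene of the survival factor BCL-XL, rose by 0.29 each.
Traf5 and Birc3, the latter encoding a cIAP, fell by 0.14 each (adjusted p = 0.0239 and 0.0252). Traf5 missed the threshold without B6.SLE123 replicate 1 (adjusted p = 0.0518) or C57BL/6 replicate 1 (0.0665) and with the replicate number as a block (0.0502). Birc3 missed it without B6.SLE123 replicate 2 (0.0576) or 3 (0.0526) and without C57BL/6 replicate 1 (0.0604) or 2 (0.0636).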

How the data were processed

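CD11c-positive splenocytes of 8 mice were profiled by bulk RNA sequencing with a library kit that the labels call stranded. The authors ran FastQC and cutadapt on the reads, used STAR for alignment to mm10 and took counts per gene with featureCounts; versions, strand and overlap settings are not given in the sources used here. The deposited columns used here are raw counts per gene and mouse. The deposited columns of the authors' DESeq2 comparison (mean normalized signal, log2 fold change and its error, test score, p-values and fold as a ratio) were not used. Symbols that had become dates were restored for 21 genes.

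The strains were compared in edgeR 4.0.16 under R 4.3.3 by a quasi-likelihood F test with TMM scaling and without a filter. Benjamini-Hochberg adjustment covered 13786 genes, with a threshold of 0.05. Mice of a strain differed by more than sampling noise, with a chi-square per degree of freedom of 4.96 to 18.9. Log2 CPM used a prior count of 2. Exact two-sided permutation tests of relative levels used SciPy 1.17.1. Exon lengths came from GENCODE M21 (13777 genes had one), where the 5 genes have the deposited coordinates. The scripts were tested on simulated data.

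The 5 genes, the 17 other lists and the rules were chosen with earlier results of these data known. Every one of the 5 genes is named, with the 3 largest rises and falls past the threshold in each pathway list, Furin, Tnfsf12, Traf3, Map3k14, Nfkb2, Relb and Cd40, the 3 most abundant genes of marker lists, neighbouring genes and the 3 genes most alike in pattern. Exceptions named after their values were seen are Jchain, Mzb1, Derl3, Prdm1, Ngp, Camp and Ltf, and list members given for their role. Alternatives were RLE factors, a minimum of 10 counts in every sample, a replicate block, DESeq2 1.42.0, limma-voom (limma 3.58.1), a prior count of 0.5, list medians and omission of each mouse. Some genes that these rules or lists would include are not reported here, and the article's other experiments were not analysed here.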

Additional observations from a re-analysis of the deposited data

Results flagged for a closer look

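Of 70 groups of 4 mice examined, 2 held a mouse that stood apart from the rest by Dixon's test, and chance gives about 5%. The log2 CPM of Tnfsf12 in B6.SLE123 replicate 2 was 1.0, against a median of 1.6 in its strain, with a gap of 0.83 of the range; this mouse also had the lowest BAFF and APRIL values. The BAFF receptor relative to B cell markers was -1.3 in B6.SLE123 replicate 3, against a median of -1.37, with a gap of 0.871 of a narrow range.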

How the results depend on the processing

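APRIL and the BAFF receptor kept their direction and an adjusted p below 0.05 under RLE factors, the count filter, the replicate block, DESeq2, limma-voom and every left-out mouse. Over left-out mice their log2 fold changes ranged from -1.94 to -1.64 and from -0.53 to -0.43. Those of BAFF ranged from -0.48 to -0.18 and those of TACI from -0.11 to 0.02, neither past the threshold. BCMA ranged from 0.61 to 1.65, given without a test. Over the same fits Irf4 ranged from -0.02 to 0.12, Ms4a6c from -0.02 to 0.08 and S100a9 from -0.46 to 0.03, genes that did not pass the test. BCMA had no value under the filter of 10 counts. The filter left 4 called neutrophil markers in place of 7, with Ngp and Camp among the genes it removed. Left-out mice gave 2 to 4 called T cell markers and 1 to 4 called NK cell markers.

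With medians in place of means over a list, BAFF relative to neutrophil markers was 0.04, TACI relative to plasma cell markers 0.12, and APRIL relative to neutrophil markers -1.37 (exact permutation p = 0.0571); the cause was not tested. Mice of the same number showed little shared deviation (r of 0.024, 0.071, -0.029 and 0.115 for replicates 1, 2, 3 and 4). The best match in the other strain had the same number for replicates 2 and 4, but not for 1 and 3. Low r values in so few mice cannot exclude pairing, so whether the numbers pair the mice was not settled. With the replicate block the log2 fold changes were -0.32 for BAFF, -1.79 for APRIL, -0.02 for TACI, -0.49 for the BAFF receptor and 1.06 for BCMA, 8 type 2 dendritic cell markers were called in place of 4 and 3 NK cell markers in place of 1, and Traf5, Cd70 and Ngp missed the threshold. In all, 613 of 646 values for single genes kept their direction and call. Of 475 values for the comparisons, 464 were rated the same, by rules that differed. For counts of called genes that rating allowed a moderate change of the count. For relative levels with a mouse left out, it asked only for a shift smaller than the larger SD of the strains. Depth limits BCMA above all, and BAFF at 31 to 51 counts a mouse.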

Other observations

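Other ligands and receptors of the tumor necrosis factor superfamily were read against the 53.4% of all genes called. Of 16 other ligands, 15 were in the table, 4 rose and 6 fell by edgeR at an adjusted p below 0.05, with a median log2 fold change of -0.18. Fasl, the death ligand of T and NK cells, rose from 3.48 to 7.66 CPM (1.14 ± 0.15, SE; adjusted p = 9.52e-05), and Eda, the ectodysplasin gene, rose by 0.62 (adjusted p = 0.014). Tnfsf18, the gene of GITR ligand, fell from 4.55 to 0.827 CPM (-2.52 ± 0.33; adjusted p = 7.86e-05), and Tnfsf14, the gene of LIGHT, had a log2 fold change of -0.80 (adjusted p = 0.000421). Cd70, the ligand of CD27, rose by 0.91 (adjusted p = 0.0294) but missed the threshold by DESeq2 (adjusted p = 0.109), with the replicate block (0.0545), and without B6.SLE123 replicate 1 (0.0724) or 4 (0.0734) or C57BL/6 replicate 2 (0.0727) or 4 (0.0639).

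Of 25 other receptors, 22 were in the table, 6 rose and 5 fell, beside 26.7% of all genes higher and 26.6% lower, with a median log2 fold change of 0.08. Fas rose from 9.23 to 16.9 CPM (0.87 ± 0.07; edgeR adjusted p = 3.01e-06), and Cd40, which also signals to the noncanonical NF-κB pathway, from 70.8 to 98.1 CPM (0.47 ± 0.05; adjusted p = 2.05e-05). Tnfrsf9, the gene of the costimulatory receptor 4-1BB, rose by 0.68 (adjusted p = 0.00494). Tnfrsf21, the gene of death receptor DR6, fell from 137 to 49.1 CPM (-1.48 ± 0.11; adjusted p = 1.38e-06), and Tnfrsf1a and Ltbr, receptors for TNF and lymphotoxin, had log2 fold changes of -0.44 each.

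The genes whose log2 CPM over the 8 mice, centred on their means, lay nearest to each ligand and receptor were sought among 11746 genes with a mean of at least 1 CPM, or 11747 for Tnfrsf17. For Tnfsf13 they were Cables1, Lrp12 and Sqor, with root mean square differences of 0.164, 0.173 and 0.193, and for Tnfsf13b Stox2 (0.124), Sh2d2a (0.128) and Ccr2 (0.137), the last also in the monocyte list. For Tnfrsf13c they were Dnal4 (0.0514), Glb1 (0.0557) and Scd1 (0.0640), and for Tnfrsf13b they included Zfp870 (0.0493) and Elk3 (0.0506). Tnfrsf17, with few counts, had no gene nearer than Cnbd2 (0.337), followed by Cdhr1 (0.342) and Orm2 (0.349).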
